A study of Mus musculus with 6 samples.

Results

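The melanocyte pigment genes are 10 genes that pigment cells use to make and store melanin or to control that work, taken by symbol from a gene-level count table of mouse ear skin. They are the enzyme genes Tyr, Tyrp1 and Dct, the melanosome protein genes Pmel, Mlana, Slc45a2, Slc24a5 and Oca2, the transcription factor gene Mitf and the receptor gene Mc1r. All 10 were found among the 18404 genes of the table, and all 10 passed the filter on low counts. Poly(A) RNA was sequenced from ear skin of pups at postnatal day 3, in 3 libraries of pups in which Kdr had been deleted in endothelium by induction (ecko, written Vegfr2ecko in the titles) and 3 libraries of littermate controls. Kdr encodes VEGFR2, the main receptor for VEGF-A on endothelial cells. Pups of both groups received tamoxifen, which switches on the gene deletion in the knockout, at 60 µg per day on postnatal days 1 and 2, and the series title gives 48 h. The labels name neither the Cre driver and the genotype of the controls nor the strain and coat colour. They also do not say whether each library is a separate animal, so part of the spread behind each p-value may be technical, although the Y-linked reads given with the library totals place more than 1 animal in each group.

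Melanocytes arise from the neural crest, settle in the epidermis and hair follicles, and build melanin inside melanosomes, organelles related to lysosomes. Tyrosinase starts the synthesis from tyrosine, TYRP1 and dopachrome tautomerase (DCT) work on later intermediates of the dark pigment eumelanin, and PMEL forms the fibrils on which melanin is laid down. MITF, a basic helix-loop-helix factor, is the central regulator of the lineage and is known to bind E-boxes with the letters CATGTG in promoters of the enzyme genes. MC1R, the receptor for melanocortins, raises eumelanin synthesis when active.

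The promoters of the 3 enzyme genes are shown because they carry the sequence through which the members are known to be tied to one factor. Of the 10 members, 7 had an entry in the RefSeq promoter table of build GRCm38.p6, which holds 250 bases before and 50 bases after a transcript start. Tyr, Tyrp1 and Dct shared a stretch of 10 bases around CATGTG, printed here in capitals in the 250 bases before each start.
Tyr (chr7:87493513-87493762, minus strand): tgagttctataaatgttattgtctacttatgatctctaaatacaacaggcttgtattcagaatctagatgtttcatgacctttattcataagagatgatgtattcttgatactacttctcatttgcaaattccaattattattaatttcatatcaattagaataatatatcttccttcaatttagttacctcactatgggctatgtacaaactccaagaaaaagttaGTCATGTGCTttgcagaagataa
Tyrp1 (chr4:80833963-80834212, plus strand): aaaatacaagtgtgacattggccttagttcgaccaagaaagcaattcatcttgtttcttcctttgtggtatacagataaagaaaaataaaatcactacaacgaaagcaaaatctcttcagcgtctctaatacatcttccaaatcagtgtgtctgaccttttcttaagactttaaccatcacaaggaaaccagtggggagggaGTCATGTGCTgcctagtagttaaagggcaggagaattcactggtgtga
Dct (chr14:118052247-118052496, minus strand): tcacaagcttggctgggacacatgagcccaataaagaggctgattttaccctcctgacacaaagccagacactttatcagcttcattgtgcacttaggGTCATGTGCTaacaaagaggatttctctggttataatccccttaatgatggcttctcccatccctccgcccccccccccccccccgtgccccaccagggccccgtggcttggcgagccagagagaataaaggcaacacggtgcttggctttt
The stretch GTCATGTGCT lay 23 to 14 bases before the start in Tyr, 48 to 39 bases before it in Tyrp1 and 152 to 143 bases before it in Dct. The Tyrp1 start used here lies downstream of the annotated gene start at 80834123. The Tyrp1 stretch, within 80834157 to 80834182, therefore lies inside the gene span. Searched on both strands, the stretch GTCATGTGCT was present in 61 of all 32851 promoters of the table, or 0.186%. The stretch was defined from the 3 enzyme promoters, which are among the 61, so its presence in them was set by that choice. The shorter CATGTG, which it contains, was found on either strand in 14.2% of all promoters. Of the 9 promoters of 7 members 6 held CATGTG, in Tyr, Tyrp1, Dct, Slc24a5, Oca2 and Mc1r. The 3 promoters listed for Mitf itself held none in these windows.

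**Figure D1:**
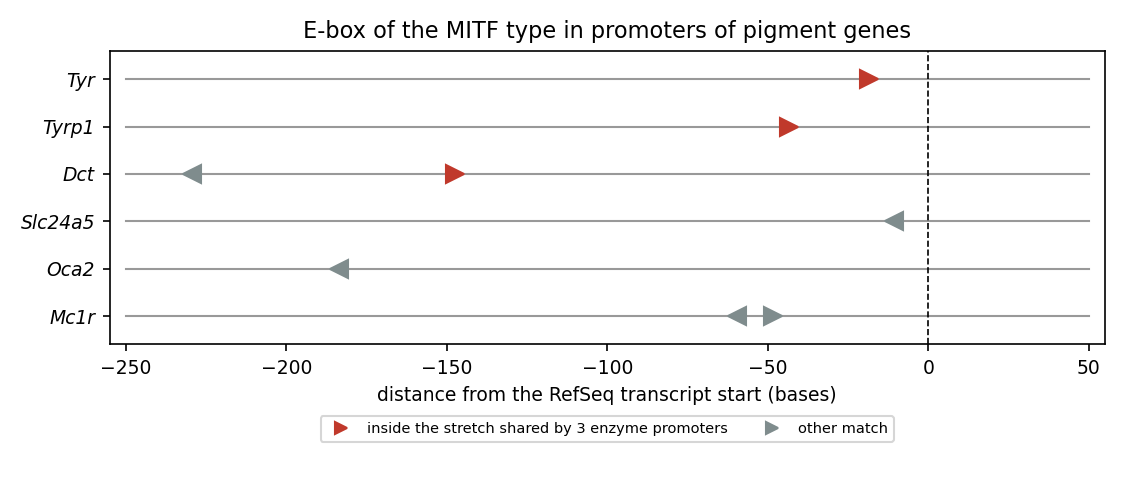
Position of every CATGTG match in 6 promoters of pigment genes, in bases from the RefSeq transcript start (dashed line), pointing right on the gene strand and left on the opposite strand. Red marks lie inside the stretch of 10 bases shared by Tyr, Tyrp1 and Dct; Dct and Mc1r each have 2 matches.

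Outside the enzyme genes no match lay in the full stretch of 10 bases, and the other match in Dct did not either. The longer TCATGTG was found on either strand in 5 of 9 member promoters (Tyr, Tyrp1, Dct, Slc24a5 and Mc1r), beside 3.77% of all promoters. These windows of 26 bases are turned so that the hexamer, in capitals, reads CATGTG, and they show where the flanks depart from the shared stretch. The Slc24a5 and Mc1r windows keep the T before the hexamer, and the Oca2 window does not.
Tyr (chr7:87493518-87493543, minus strand): aaaagttagtCATGTGctttgcagaa
Slc24a5 (chr2:125068104-125068129, minus strand): tatgctgaatCATGTGagcagtctcc
Oca2 (chr7:56239563-56239588, minus strand): aaattccagcCATGTGtagcaagctc
Mc1r (chr8:123407021-123407046, plus strand): acatgcccatCATGTGgccaccctca
A match to these letters describes the sequence and does not show that a factor was bound in these samples.

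Library totals ran from 16987130 to 17979182 expected counts. The targeted gene was lower in ecko: Kdr had 348, 431 and 370 counts in ecko and 1599, 1860 and 1337 counts in the controls, a log2 fold change of -2.05 ± 0.12 (SE; edgeR adjusted p 0.0002). It was the 1 gene of 14920 that passed edgeR's quasi-likelihood test at an adjusted p under 0.05, so the share called was 0.0067% (0% higher). Unadjusted p lay under 0.05 for 734 genes higher and 611 lower (9.01%), and DESeq2 called 86 higher and 26 lower. Keratinocytes were recognisable in all libraries from their genes Krt5 and Krt14. Krt5 had 3288 ± 138 CPM in ecko skin and 3520 ± 205 CPM in control skin. Krt14 had 1641 ± 33.1 CPM in ecko skin and 1760 ± 121 CPM in control skin (SD, n = 3 each). CPM values are counts divided by the library total after its adjustment by TMM. In each group 1 library, ecko 3 and control 2, had almost no reads of the Y-linked gene Ddx3y (6 and 4 counts, against 1445 to 1641 elsewhere). The sum over 6 skeletal muscle genes was 4777 CPM in control 3 and 6669 to 8529 CPM elsewhere.

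None of the 10 pigment genes differed between ecko and control skin beyond the spread between libraries. With edgeR 0 members were called higher and 0 lower, at adjusted p of 0.734 to 0.997, and 0 had an unadjusted p under 0.05 (the smallest was 0.266, for Oca2). The other tools gave the same count, as DESeq2 and limma-voom each called 0 members. Groups overlapped in all 10 members, where 15.7% of all tested genes had groups without overlap (7.55% with ecko higher, 8.11% with ecko lower). The mean was higher in ecko for 6 members and lower for 4, and the median log2 fold change was 0.01, beside 0.00 over all tested genes. Summed over the 10 members the level was 408 ± 24.1 CPM in ecko skin and 403 ± 15.5 CPM in control skin (SD, n = 3 each). Dct alone made up 39.5% to 41.9% of this sum per library, so the sum weights the members unequally. In bulk tissue, the number of melanocytes and the RNA per melanocyte cannot be told apart.

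**Figure D2:**
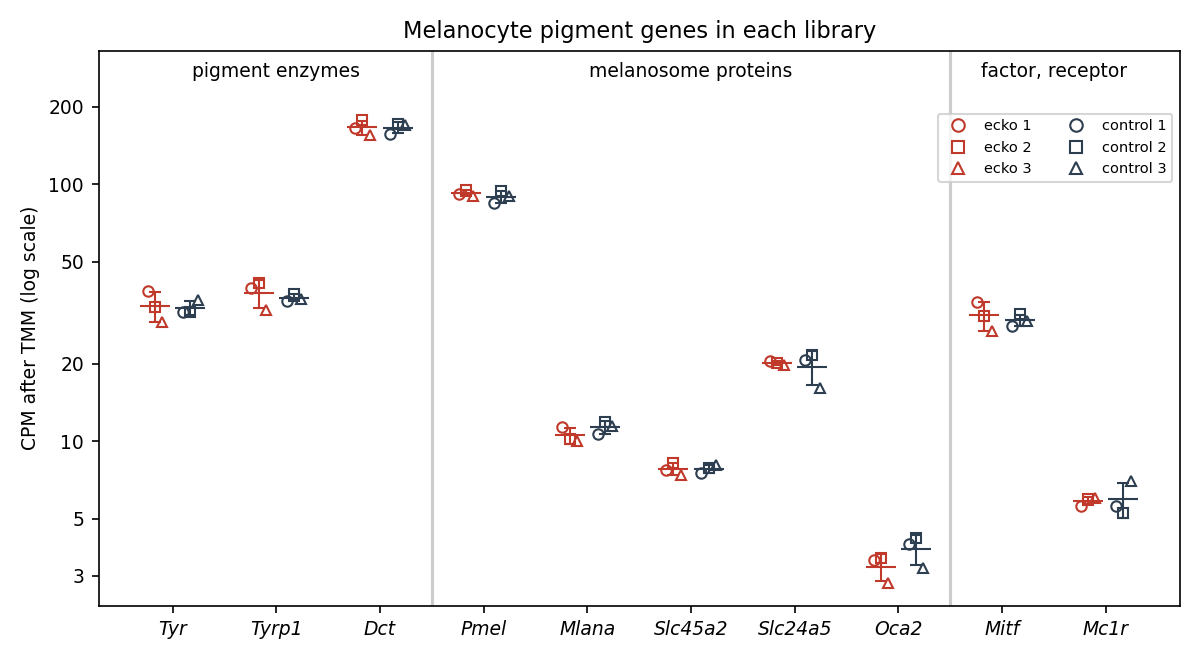
Level of each pigment gene in every library, in CPM on a log scale, with ecko (red) left of control (dark). Open symbols are libraries, the horizontal mark is the mean and bars are the SD of 3 libraries; the groups overlap in all 10 genes.

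The enzyme genes had nearly equal means in both groups. Dct (Entrez 13190, chromosome 14, 118012790 to 118052246), the gene with the most reads of the set, had 2971, 3155 and 2666 counts in ecko and 2794, 3084 and 2952 counts in the controls. In CPM these were 165, 177 and 156 in ecko and 157, 171 and 170 in the controls. The highest and the lowest of the 6 values were both ecko libraries, so the controls lay inside the ecko range. Ecko differed from control by a log2 fold change of 0.00 ± 0.07 (SE; edgeR adjusted p 0.997), whose 95% interval ran from -0.15 to 0.15, or 0.903-fold to 1.11-fold.

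Tyr (Entrez 22173, chromosome 7, 87424771 to 87493512), which encodes the rate-limiting enzyme tyrosinase, had 690, 595 and 500 counts in ecko and 568, 575 and 613 counts in the controls. In CPM these were 38.4, 33.4 and 29.2 in ecko and 31.9, 31.8 and 35.3 in the controls. The ecko libraries again spanned the controls, with ecko 1 highest and ecko 3 lowest, and the SD was 4.58 CPM in ecko skin and 2.00 CPM in control skin. For Tyr the log2 fold change was 0.03 ± 0.10 (SE; edgeR adjusted p 0.942; 95% interval -0.20 to 0.26).

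Tyrp1 (Entrez 22178, chromosome 4, 80834123 to 80851736), whose protein acts late in eumelanin synthesis and steadies tyrosinase, had 708, 737 and 555 counts in ecko and 628, 678 and 622 counts in the controls. The levels were 39.4, 41.3 and 32.5 CPM in ecko skin and 35.3, 37.5 and 35.9 CPM in control skin. As for Tyr, ecko 3 was the lowest library, while the other ecko libraries stood above every control. This gave a log2 fold change of 0.06 ± 0.10 (SE; edgeR adjusted p 0.873; 95% interval -0.15 to 0.27). Ratios between the enzymes moved little, with Tyrp1 at 0.227 ± 0.0162 of the Dct level in ecko and 0.218 ± 0.00714 of it in the controls, and Tyr at 0.203 ± 0.0255 and 0.199 ± 0.0112 (SD, n = 3 each; ratios of CPM).

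Among the melanosome proteins, Pmel (Entrez 20431, chromosome 10, 128695888 to 128720238) had the most reads and the narrowest interval of all 10 members. It had 1652, 1694 and 1541 counts in ecko and 1505, 1696 and 1559 counts in the controls, or 91.9, 94.98 and 90.1 CPM against 84.6, 93.9 and 89.9 CPM. Every ecko library stood above control 1 and control 3, and control 2 lay inside the ecko range. Its log2 fold change was 0.05 ± 0.06 (SE; edgeR adjusted p 0.842; 95% interval -0.09 to 0.19).

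Mlana (Entrez 77836, chromosome 19, 29697541 to 29708447), whose small membrane protein binds PMEL and takes part in melanosome maturation, had 205, 183 and 171 counts in ecko and 190, 216 and 199 counts in the controls. In CPM it had 11.4, 10.3 and 10.0 in ecko and 10.7, 11.95 and 11.5 in the controls. Ecko 2 and ecko 3 were below all controls and ecko 1 was not. Mlana had a log2 fold change of -0.11 ± 0.12 (SE; edgeR adjusted p 0.796; 95% interval -0.36 to 0.15).

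The 3 transporter genes act on the melanosome interior. Slc45a2 (Entrez 22293, chromosome 15, 11000721 to 11029233), a membrane transporter needed for normal melanosome pH, had 139, 147 and 127 counts in ecko and 134, 142 and 140 counts in the controls. Its levels of 7.73, 8.24 and 7.43 CPM in ecko skin and 7.53, 7.86 and 8.07 CPM in control skin spread by a coefficient of variation (CV) of 3.99% over 6 libraries, less than the 8.51% that counting alone gives at its mean count of 138. Its fitted log2 fold change was 0.00 ± 0.13 (SE; edgeR adjusted p 0.995; 95% interval -0.28 to 0.27).

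Slc24a5 (Entrez 317750, chromosome 2, 125068127 to 125088677), a potassium-dependent sodium and calcium exchanger, had 369, 359 and 338 counts in ecko and 368, 391 and 281 counts in the controls after rounding. In CPM these were 20.5, 20.1 and 19.8 in ecko and 20.7, 21.6 and 16.2 in the controls. Control 3 stood apart as the lowest library, and the other 5 lay between 19.8 and 21.6 CPM. The log2 fold change was 0.05 ± 0.12 (SE; edgeR adjusted p 0.917; 95% interval -0.21 to 0.30). Exons of Slc24a5 overlap those of Myef2 on the opposite strand by 921 bases in GENCODE M21, and the strand setting of the counting is not given in the sources used here, so reads there cannot be assigned with certainty. Myef2 had 59.2 ± 3.90 CPM in ecko skin and 55.6 ± 7.24 CPM in control skin (SD, n = 3 each). Pmel has a smaller overlap of the same kind, 105 bases with Dgka and 34 bases with Cdk2.

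Oca2 (Entrez 18431, chromosome 7, 56239593 to 56536518), a melanosomal chloride channel that influences luminal pH, was the member with the fewest reads and the lowest mean ratio of ecko to control. It had 62, 63 and 48 counts in ecko and 71, 76 and 56 counts in the controls, or 3.45, 3.53 and 2.81 CPM against 3.99, 4.21 and 3.23 CPM. All ecko libraries lay below control 1 and control 2, but control 3 was below ecko 1 and ecko 2. Oca2 had a log2 fold change of -0.22 ± 0.19 (SE; edgeR adjusted p 0.734; 95% interval -0.64 to 0.20). The interval leaves room for 0.641-fold to 1.15-fold, so a fall of moderate size in Oca2 was not detectable at this depth.

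Mitf (Entrez 17342, chromosome 6, 97807002 to 98021360) had 628, 550 and 460 counts in ecko and 502, 563 and 508 counts in the controls, or 34.9, 30.8 and 26.9 CPM against 28.2, 31.2 and 29.3 CPM. As for Tyr, ecko 1 was the highest and ecko 3 the lowest of the 6 libraries. Mitf had a log2 fold change of 0.06 ± 0.10 (SE; edgeR adjusted p 0.869; 95% interval -0.16 to 0.29). Mitf has several promoters, of which a melanocyte-specific one is known, and is also used by mast cells and osteoclasts. The gene-level counts pool these transcripts.

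Mc1r (Entrez 17199, chromosome 8, 123407082 to 123410744) had 101, 107 and 103 counts in ecko and 100, 95 and 122 counts in the controls. The ecko libraries were close together at 5.62, 6.0 and 6.02 CPM, against 5.62, 5.26 and 7.03 CPM in control skin, where control 3 was highest. The log2 fold change was -0.02 ± 0.16 (SE; edgeR adjusted p 0.975; 95% interval -0.37 to 0.33). All of Mc1r lies within the span of the annotated gene Gm20388 on the same strand, with no exon of that gene shared in GENCODE M21.

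**Figure D3:**
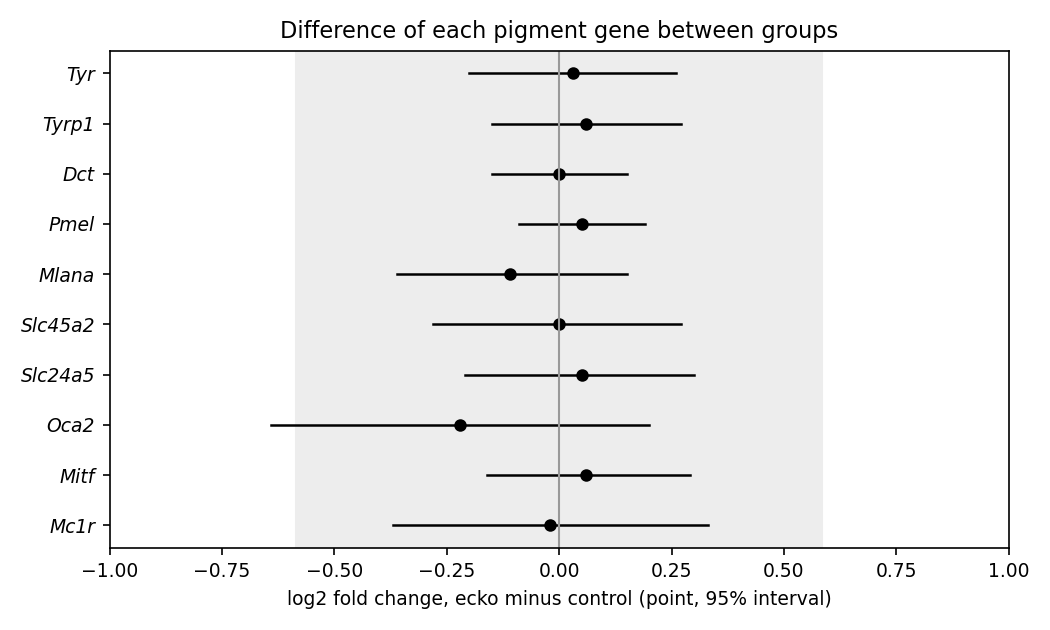
Log2 fold change of ecko minus control for each pigment gene, with its 95% interval from the edgeR fit. All 10 intervals include 0, and all but that of Oca2 lie inside the grey band, which spans a 1.5-fold change in either direction.

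Read together, the intervals of 9 members excluded a change of 1.5-fold in either direction, and that of Oca2 did not exclude a fall of that size. The lowest bound over the set was 0.641-fold, in Oca2, and the highest was 1.25-fold, in Mc1r. A p that misses the threshold does not show equal levels, and these bounds state what size of change remains compatible with the data.

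Levels between genes were compared per length, as CPM per kilobase of the exon union in GENCODE M21. Pmel stood first at 40.3 ± 1.07 in ecko and 39.0 ± 2.03 in the controls, followed by Dct at 28.2 ± 1.78 and 28.2 ± 1.31, and Tyrp1 at 13.3 ± 1.65 and 12.8 ± 0.408 (SD, n = 3 each). Mlana at 9.99 ± 0.707 in ecko and 10.8 ± 0.609 in the controls and Slc24a5 at 8.65 ± 0.163 and 8.37 ± 1.25 came next. Mitf at 4.99 ± 0.649 in ecko and 4.77 ± 0.240 in the controls and Tyr at 4.74 ± 0.644 and 4.65 ± 0.282 formed the middle of the order. Slc45a2, Mc1r and Oca2 closed it at 2.62 ± 0.138, 1.62 ± 0.0623 and 0.824 ± 0.100 in ecko and 2.62 ± 0.0912, 1.64 ± 0.258 and 0.961 ± 0.130 in the controls.

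This order held in 5 of 6 libraries, and in control 3 Tyr stood above Mitf. Per exon union, Mitf and Tyr were the one pair of neighbours whose ranges over the 6 libraries overlapped. The length used matters for Dct, whose exon union of 5895 bases is longer than its principal transcript of 2202 bases. Per kilobase of the principal transcript Dct stood first at 75.4 ± 4.77 in ecko and 75.4 ± 3.51 in the controls and Pmel came after it at 43.4 ± 1.15 and 42.0 ± 2.18 (SD, n = 3 each), with the other 8 in the same order. With that length the ranges of Tyrp1 and Mlana, of Mlana and Slc24a5, and of Mitf and Tyr overlapped.

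Across libraries the members varied by a CV of 3.99% (Slc45a2) to 14.4% (Oca2), with a median of 8.90%, where the median over all tested genes at a mean of 50 counts or more was 8.38%. For the genes with many reads the spread was above that of counting. Tyr had a CV of 9.54% against 4.12% from counting, and Dct 4.97% against 1.85%. For Oca2, Mlana and Mc1r the 2 were close, at 14.4% against 12.6%, 6.99% against 7.18% and 10.3% against 9.77%.

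Members were low or high together in some libraries of either group. Ecko 3 was the lowest library for 7 of 10 members and ecko 2 the highest for 4. The summed level was 419, 426 and 381 CPM in ecko skin and 386, 416 and 407 CPM in control skin, so ecko 3 and control 1 were the 2 lowest. The summed level of 9 hair follicle genes, chosen as a hair matrix list, was also lowest in these 2. It was 1446 CPM in ecko 3 and 1399 CPM in control 1, against 1592 to 1937 CPM in the other libraries. Krt71, a keratin gene of the inner root sheath, gave most of the sum, at 903 CPM in ecko 3 and 890 CPM in control 1. The part of this sum in the members' levels was not tested. Not all melanocyte genes were low in ecko 3. Among the lineage genes and other melanocyte products described below, Sox10, Kit, Irf4, Trpm1 and Mlph were highest in ecko 3. Ednrb, Rab32 and Myo5a were lowest there. How often ecko 3 was the lowest library over all tested genes was not counted.

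**Figure D4:**
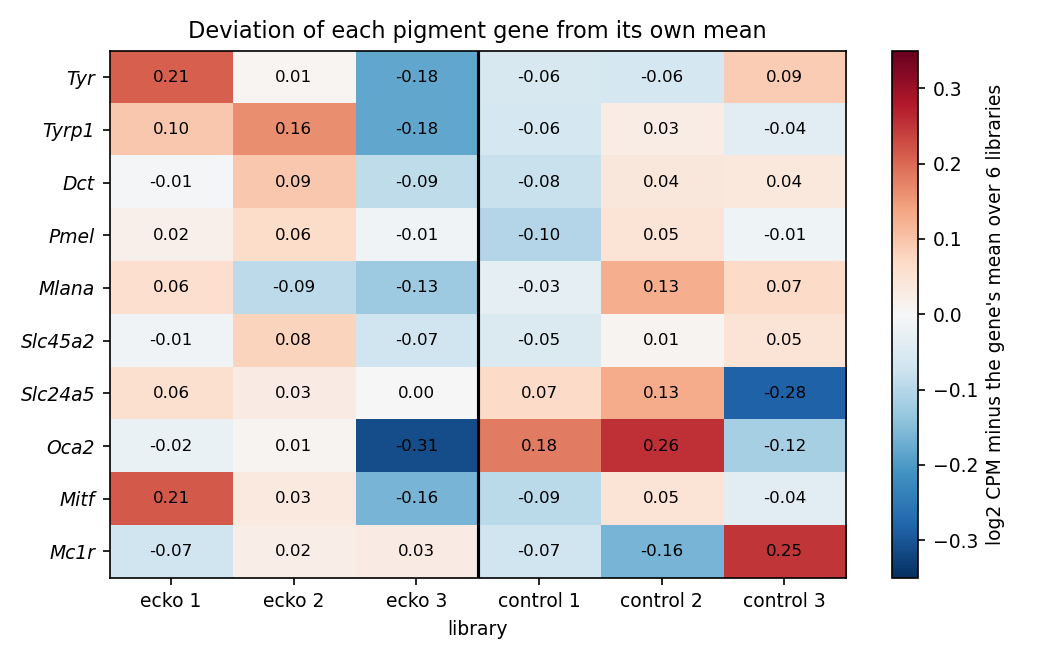
Log2 CPM of each pigment gene minus its own mean over the 6 libraries, with ecko libraries left of the controls. Ecko 3 and control 1 each have 8 of 10 members below their mean, and the largest single deviations are those of Oca2 in ecko 3 (-0.31) and Slc24a5 in control 3 (-0.28).

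Averaged over the members, the deviation from each gene's mean was 0.054, 0.041 and -0.110 in ecko 1 to 3 and -0.030, 0.046 and 0.000 log2 units in control 1 to 3. The genes whose 6 values lay nearest to this mean profile were Kif16b, Nkap, Ubl7 and Eps15, with root mean square differences of 0.015, 0.017, 0.018 and 0.021 log2 units over 6 libraries. Their log2 fold changes ran from -0.01 to 0.01, which follows from choosing them by a profile with nearly equal group means. Of 13161 genes compared, 94 lay closer to the mean profile than Dct, the closest member, at 0.042.

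Regulators and receptors of the melanocyte lineage were likewise not called, with 0 of 9 past the test in either direction and a median log2 fold change of 0.09. Sox10, the neural crest factor that switches on Mitf, had 15.9, 16.2 and 19.7 CPM in ecko skin and 15.7, 18.8 and 12.9 CPM in control skin (log2 fold change 0.13 ± 0.15, SE; edgeR adjusted p 0.808). Kit, the receptor for stem cell factor on melanoblasts and mast cells, had 41.6, 41.5 and 44.4 CPM in ecko skin and 38.4, 41.8 and 32.4 CPM in control skin (0.18 ± 0.10; adjusted p 0.610). Control 3 was the lowest library for both genes, and without it the log2 fold changes of Sox10 and Kit were 0.007 and 0.089. Zeb2, a zinc finger factor of neural crest cells also expressed in leukocytes and fibroblasts, had a log2 fold change of 0.09 ± 0.06 (adjusted p 0.695). Pax3 and Ednrb, a factor and an endothelin receptor of melanoblasts, had 0.12 and 0.00.

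Irf4 had the smallest unadjusted p of the lineage list. IRF4 takes part in Tyr expression in human melanocytes and is also a factor of lymphocytes, macrophages and dendritic cells. It had 16.4, 10.3 and 19.9 CPM in ecko skin and 9.05, 11.2 and 6.28 CPM in control skin, so ecko 2 lay inside the control range. The log2 fold change was 0.81 ± 0.28 (SE; unadjusted p 0.0205, edgeR adjusted p 0.508). Beside it, all 6 macrophage markers averaged higher in ecko skin, beside 7381 of 14920 tested genes, and 0 were called. In ecko 3, where Irf4 was highest, their summed level was the lowest of the 3 ecko libraries. Summed, these markers had 634, 616 and 578 CPM in ecko skin and 588, 529 and 533 CPM in control skin. Among them Cd68, a lysosomal marker, had 31.1, 30.6 and 28.8 CPM in ecko skin and 24.7, 24.6 and 24.4 CPM in control skin (0.30 ± 0.08; adjusted p 0.370), and Adgre1 and Lyz2 had 0.30 and 0.21 (adjusted p 0.510 and 0.594). Their part in the Irf4 value was not tested.

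Other products of melanocytes and of melanosome transport had 0 of 11 called, 6 with a higher mean in ecko, and a median log2 fold change of 0.03. Trpm1, a channel gene under MITF control that is expressed in melanocytes, had 26.9, 27.9 and 30.1 CPM in ecko skin and 26.4, 27.0 and 26.1 CPM in control skin (0.10 ± 0.08, SE; edgeR adjusted p 0.740). Mlph, the melanophilin gene, whose protein links RAB27A on melanosomes to myosin Va, had 0.22 ± 0.21 (adjusted p 0.760), while its partners Rab27a and Myo5a had 0.09 and -0.04. Slc7a11, the cystine transporter that favours the yellow pigment pheomelanin, had -0.11 ± 0.08 (adjusted p 0.714). Many of these genes, such as Myo5a, Cd63 and Slc7a11, are used by other cells of the skin.

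Genes of melanosome biogenesis had 0 of 20 called and a median of 0.02. Most belong to the AP-3, BLOC and HPS trafficking machinery, which delivers cargo to melanosomes and is used in every cell. The list also holds Lyst, Atp7a, Clcn7, Ostm1 and Vps33a. Ostm1, a partner of the chloride transporter CLC-7, was the 1 member of this list whose groups did not overlap, at 29.0, 30.1 and 26.7 CPM in ecko skin and 31.0, 30.7 and 30.9 CPM in control skin (log2 fold change -0.11 ± 0.08, SE; edgeR adjusted p 0.695). Dtnbp1, a BLOC-1 subunit, and Vps33a, a subunit of tethering complexes, had -0.16 ± 0.09 and 0.19 ± 0.11 (adjusted p 0.622 and 0.635).

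Signals that reach melanocytes from keratinocytes, fibroblasts and vessels had 0 of 8 tested members called and a median of -0.04. Fgf2, a growth factor for melanocytes, had 34.7, 29.6 and 29.5 CPM in ecko skin and 28.8, 25.8 and 28.6 CPM in control skin, without overlap (log2 fold change 0.17 ± 0.09, SE; edgeR adjusted p 0.611). Mgrn1, a ubiquitin ligase gene whose loss darkens the mouse coat, had 72.2, 68.9 and 73.1 CPM in ecko skin and 73.5, 79.5 and 73.6 CPM in control skin, also without overlap (-0.08 ± 0.07; adjusted p 0.717). Kitl, the stem cell factor gene, had -0.07, Edn3, which encodes an endothelin that expands melanoblasts, 0.06, and Corin, a protease gene of the dermal papilla that limits agouti signalling, -0.16. Pomc, the melanocortin precursor gene, had 1 to 2 counts per library in both groups and was not tested. Asip was not analysed here. Attractin was looked up as Attrn, which is not its mouse symbol (Atrn), so it was not analysed either. In these 4 related lists, with 48 tested genes, 3 had groups without overlap, beside 15.7% of all tested genes.

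Markers of neighbouring cells were read for the same libraries, and of 49 tested genes in 7 lists 0 were called. Schwann cells share the neural crest origin and Sox10. Of their markers 8 of 9 averaged higher in ecko skin (median log2 fold change 0.07), beside 7381 of 14920 tested genes. Their summed level was 626, 581 and 610 CPM in ecko skin and 587, 601 and 515 CPM in control skin, with control 3 lowest. Erbb3, a neuregulin receptor of Schwann cells that is also expressed in epithelium, had 188, 145.4 and 160 CPM in ecko skin and 135, 145.4 and 128 CPM in control skin with ecko 2 and control 2 nearly touching (0.27 ± 0.09, SE; edgeR adjusted p 0.495), and the cadherin gene Cdh19 had 0.34 (adjusted p 0.638). Mast cell markers, which share Kit and Mitf with melanocytes, had a median of 0.04, with Ms4a2 at 0.23, Cma1 at 0.05 and Mcpt4 at 0.03 (adjusted p 0.637 to 0.921). Their summed level was 666 to 700 CPM in ecko skin and 557 to 726 CPM in control skin.

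The epithelial lists, which include cells that receive melanin, had medians of -0.03 for basal keratinocyte, -0.04 for suprabasal keratinocyte and -0.02 for the hair follicle genes. Krt15, a keratin gene of basal cells, had 663 ± 30.1 CPM in ecko skin and 739 ± 22.9 CPM in control skin, without overlap (SD, n = 3 each; log2 fold change -0.16, edgeR adjusted p 0.531), and Krt14 and Krt5 had -0.10 each. The suprabasal genes Lor, Krt1 and Flg had -0.19, -0.21 and 0.09. The hair follicle keratin genes Krt35, Krt31 and Krt71 had -0.17, -0.28 and -0.15 (adjusted p 0.617 to 0.785 over the 6 genes). Lor was highest in control 3, and without that library its log2 fold change was -0.001. Skeletal muscle genes had a median of 0.07, with Myh3, Myh8 and Acta1 at 0.45, 0.18 and 0.10 (adjusted p 0.629 to 0.897). Without control 3, these 3 genes had log2 fold changes of 0.232, -0.031 and -0.1.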

How the data were processed

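Per the labels, poly(A) RNA from ear skin was sequenced in 6 libraries. The deposited table holds expected counts per gene, read as such from the values, since 10.1% to 10.4% per library are not whole. Per the submitters' processing notes the build was GRCm38.p6 and the tools were RSEM 1.3.1, HISAT2 2.2.1 and Bowtie2 2.4.5, with no roles given. Annotation, filters and strand setting are not given in the sources used here. Reads carry no molecular identifiers, so counting error covers read sampling alone.

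Counts were rounded and tested with edgeR 4.0.16 (R 4.3.3): filterByExpr with a minimum count of 10, TMM, robust glmQLFit, two-sided p adjusted by Benjamini-Hochberg over 14920 genes, threshold 0.05. The SE is the absolute log2 fold change over the square root of F, and 95% intervals use the test's degrees of freedom. An exact permutation test of 3 against 3 libraries cannot go below 0.1 and was not used. The fit was tested on simulated data. Alternatives were DESeq2 1.42.0, limma-voom 3.58.1, other scaling and filters, non-robust fitting, a replicate block and leaving out libraries.

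Members and lists were chosen with earlier results of these data known. Named genes are the members, Kdr, Sox10, Kit, the 3 smallest unadjusted p of each list, and the 4 nearest profiles by root mean square difference of centred log2 CPM (prior count 2) among genes averaging 50 counts or more. The rule also takes 1 Schwann cell gene that is not reported here. Other genes of the lists (Pax3, Ednrb, Rab27a, Myo5a, Kitl, Edn3), the genes overlapping members and Ddx3y were named after their values were seen. The stretch shared by the enzyme promoters was also found by looking at them. Gene positions and promoters are from RefSeq, lengths and overlaps from GENCODE M21, all on GRCm38.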

Additional observations from a re-analysis of the deposited data

How the results depend on the processing

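No pigment gene was called under any of the 14 alternatives run, and the members' median log2 fold change ran from -0.023 to 0.051 with 1 library left out. It was 0.079 without ecko 3 and control 2, a choice made after the data were seen.
Over all genes the counts depended on the model. DESeq2 called 86 genes higher and 26 lower, the replicate block 88 and 10, leaving out ecko 3 and control 2 called 2 and 2, and leaving out 1 library called 0 to 2 higher and 1 to 1 lower, with 2 higher without ecko 3. The cause was not tested. The labels do not say that equal replicate numbers mark a shared litter or batch. Deviations from the group means correlated at 0.182, -0.293 and -0.0924 between libraries of equal number across 14185 genes. The highest correlation, 0.405, was between ecko 3 and control 2, both almost without Ddx3y reads. Such deviations sum to 0 over the 3 libraries of a group, so these values cannot decide what the numbers mark.
Fold changes near 0 changed sign. With 1 library left out Tyr ran from -0.08 to 0.119, Tyrp1 from -0.01 to 0.155, Dct from -0.046 to 0.044, Slc45a2 from -0.043 to 0.03, Slc24a5 from -0.066 to 0.124, Mitf from -0.036 to 0.154 and Mc1r from -0.108 to 0.118. So did Acta1 (-0.1 to 0.287), Cma1 (-0.04 to 0.149), Eps15 (-0.035 to 0.041), Flg (-0.014 to 0.171), Kif16b (-0.038 to 0.024), Mcpt4 (-0.059 to 0.083), Myh8 (-0.031 to 0.387), Nkap (-0.034 to 0.03) and Ubl7 (-0.015 to 0.051). Without ecko 3 and control 2 the values were -0.063 for Cma1, -0.005 for Flg, 0.047 for Kif16b, 0.034 for Krt71 and Slc45a2, -0.093 for Mcpt4 and 0.054 for Nkap. Slc45a2 was at 0.000 with no low-count filter. Depth limits Oca2, Mc1r and Slc45a2 most.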
